A study of Homo sapiens with 6 samples.

Results

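The genes described here are those whose transcripts were less abundant in Rh30 cells expressing pannexin 1 (PANX1) than in GFP control cells. They were chosen by a measured value: the mean FPKM of the 3 PANX1 libraries had to lie below the mean FPKM of the 3 GFP libraries, without a pseudocount. FPKM is the number of sequenced fragments scaled to transcript length and to the total of mapped fragments, so that levels can be compared between genes. Of the 1273 genes in the deposited table, 165 were lower (13% of the table) and 1108 were higher. Genes whose symbols start with ZNF, SLC, LOC, LINC, RNF, TRIM, RAB or ARHG, and 6 single genes (LMOD3, KLHL31, APOBEC2, MARCKS, EGR1 and DSEL), were left out by name, which removed 15 lower genes and left 150. The lower level is therefore the selection criterion, and the PANX1 to GFP differences below are descriptions without a test. The table itself holds only genes that the authors had called changed on the same libraries, so the remaining transcriptome was not analysed here.

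Rh30 is an established cell line from an alveolar rhabdomyosarcoma, a childhood tumor with features of immature skeletal muscle. PANX1 forms channels in the plasma membrane that release nucleotides and other small molecules. Both groups were stable Rh30 lines kept under geneticin and puromycin, with a cumate switch, in which a repressor keeps an inserted gene silent until cumate is added. By the study's methods the constructs carry GFP that is always expressed, also in PANX1 cells, only PANX1 depends on cumate, and the GFP control holds the plasmid without PANX1, whereas the labels place GFP under the switch too. All 6 cultures, 3 GFP and 3 PANX1, received 30 µg/mL cumate for 48 h before total RNA was extracted and poly-A selected. The switch drives PANX1 above its natural level from an inserted construct, and the sources used here do not say whether each line was 1 clone. The study's methods call the libraries of a group biological replicates. PANX1 itself (chr11:93862094-93915137, hg19) had 37.8, 35.3 and 28.1 FPKM in GFP replicates 1, 2 and 3 and 124, 184 and 123 FPKM in PANX1 replicates 1, 2 and 3, which fits the labels. Of 12 skeletal muscle markers, DES, FGFR4 and CDH15 are in the table, with a summed level of 278, 368 and 463 FPKM in the controls, against 533, 578 and 939 FPKM in the PANX1 libraries, and DES, the muscle intermediate filament desmin, was the most abundant. The other muscle markers, among them MYOD1 and MYOG, are not in the table, so their levels were not analysed here. Of short lists of defining markers, 0 of 4 blood, 0 of 5 epithelial and 0 of 4 neuronal markers are in the table, and 1 of 4 endothelial markers, TIE1, which lay between 1.03 and 4.37 FPKM. Longer lists matched 10 entries, all higher in PANX1 cells, as were 1108 of the 1273 genes. The 8 blood and endothelial entries include CD81, the most abundant, CD82, CD151 and CD320, which matched by the start of their symbols and are broadly expressed, with TIE1, CSF1R, CD68 and LAT. They had log2 ratios from 0.87 to 2.02 and summed to 153, 163 and 188 FPKM in the controls, against 281, 269 and 656 FPKM in the PANX1 libraries. The epithelial keratin KRT7 had 0.554, 0.482 and 0.544 FPKM in the controls, against 1.43, 0.912 and 6.14 FPKM in the PANX1 libraries. The neuronal tubulin TUBB3 had 21.4, 27.7 and 27.9 FPKM in the controls, against 42.8, 34.5 and 98.7 FPKM in the PANX1 libraries. The other markers on these lists are not in the table, and the part of other cell types in the results was not tested.

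The chosen genes had a median log2 ratio of PANX1 over GFP means of -0.77, a median level of 58.5% of GFP, against 1.23 for the whole table. Under median-of-ratios scaling, which moved the table median to 0.041, it was -1.63. That scaling treats the typical gene of the table as unchanged. The table holds only genes called changed, most of them higher, so nothing is read from the scaled value. Ratios as deposited ran from -2.75 for NDST4 to -0.62 for PRR11. In 139 of the 150 genes every PANX1 library lay below every GFP library, against 151 lower genes without overlap in the whole table (11.9%). A log2 ratio below -1 was seen in 32 of the 150 genes, against 41 in the table (3.22%). Both counts come from the contrast that chose the genes and nothing is read from them. GFP means spanned 0.229 to 333 FPKM, with 112 genes at 10 FPKM or more and 14 below 1 FPKM.

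PANX1 replicate 3 was the furthest from the controls. Relative to the GFP mean, the median log2 value of the 150 genes reached -0.53 for PANX1 replicate 1, -0.58 for replicate 2 and -1.52 for replicate 3. Replicate 3 held the lowest PANX1 value in 144 genes, while replicates 1 and 2 each held it in 3. A value below -1 was reached by 20, 13 and 140 genes in replicates 1, 2 and 3. All 150 genes were below their GFP mean in each PANX1 library, and all 150 stayed lower without PANX1 replicate 3, with a median of -0.53 and 14 genes below -1. The same libraries chose the genes, so nothing is read from the kept direction. The log2 ratio moved by over 1.5 times in 56 genes without PANX1 replicate 3, in 11 without GFP replicate 3, and in at most 4 without any other single library. The median coefficient of variation was 10.4% among the GFP libraries and 34.5% among the PANX1 libraries. Values also moved with transcript base composition, described in full after the gene groups. Each library's slope of log2(FPKM + 1) on transcript GC content was therefore also subtracted, and PANX1 to GFP differences so obtained are given relative to the median of the table (called GC-adjusted below), because their sign against 0 depends on the GC content chosen as reference. The median over 137 genes with a GC value was -1.64 relative to the table before the subtraction and -0.31 after it. The rule places the lower genes below most of the table, so nothing is read from how many lie below its median. PANX1 replicate 3 also stood apart among the 1108 higher genes, whose median log2 value over the GFP mean was 0.82, 0.67 and 1.98 in PANX1 replicates 1, 2 and 3.

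**Figure D1:**
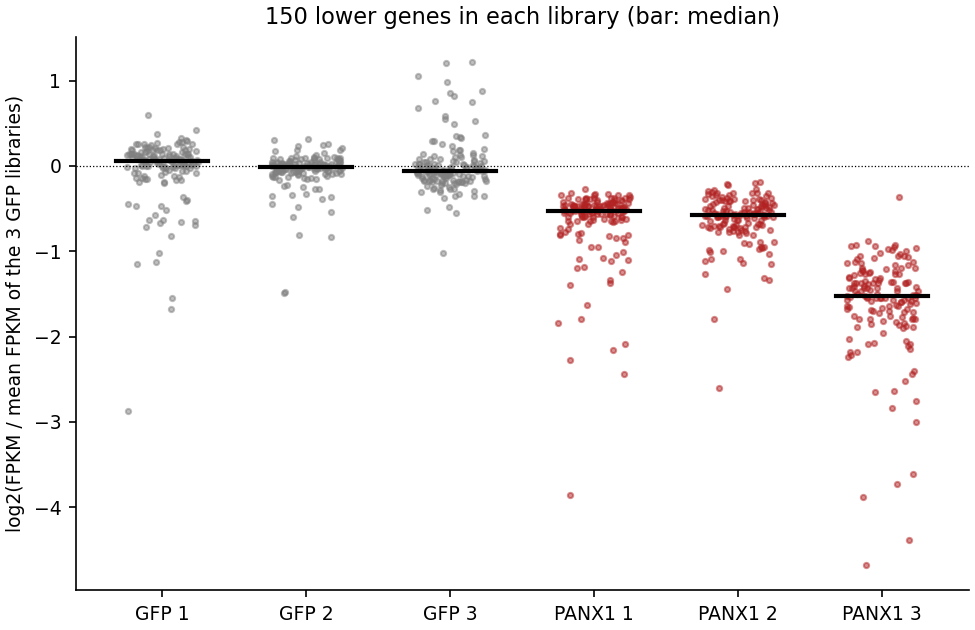
Level of each of the 150 lower genes in each library, as log2 of FPKM over the mean FPKM of the 3 GFP libraries (vertical axis), with 1 point per gene and a bar at the library median. The medians of PANX1 replicates 1 and 2 are -0.53 and -0.58, and that of PANX1 replicate 3 is -1.52.

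The largest of the functional groups assembled here was of genes that act on chromosomes and the spindle in mitosis. During mitosis condensin and topoisomerase II compact and untangle chromosomes, cohesin holds sister chromatids together, kinetochores attach them to microtubules, and the anaphase-promoting complex starts their separation. Rhabdomyosarcoma cells divide persistently, and transcripts of this machinery are known to peak as cells approach mitosis. Such genes commonly carry CCAAT boxes, bound by the factor NF-Y, and a cell cycle element called CHR with the core TTTGAA close to their start sites. Functional groups here and below were assembled from textbook roles after the gene names and values were known. In the mitotic group, 16 of 17 genes showed no overlap, beside 139 of all 150 lower genes, none had a log2 ratio below -1, and the median was -0.74 (-0.50 without PANX1 replicate 3). Their median GC content was 37.2%, and the GC-adjusted median of the 15 genes with a value was -0.23. Counts without overlap in this and the later groups come from the contrast that chose the genes, and nothing is read from them. In bulk RNA, fewer cells in mitosis and less RNA per cell cannot be told apart.

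The bases just before the start sites of 5 mitotic genes are shown because their windows hold several CCAAT letters. The sequences are from RefSeq on GRCh38.p14, written in the direction of the gene, and cover the 250 bases before the start. Capitals mark CCAAT or its reverse complement ATTGG, and TTTGAA or its reverse complement TTCAAA. The TOP2A window lies at chr17:40417897-40418146, minus strand, that of CENPF at chr1:214602945-214603194, plus strand, that of ASPM at chr1:197146670-197146919, minus strand, that of KIF20B at chr10:89701340-89701589, plus strand and that of PRR11 at chr17:59155496-59155745, plus strand.
TOP2A: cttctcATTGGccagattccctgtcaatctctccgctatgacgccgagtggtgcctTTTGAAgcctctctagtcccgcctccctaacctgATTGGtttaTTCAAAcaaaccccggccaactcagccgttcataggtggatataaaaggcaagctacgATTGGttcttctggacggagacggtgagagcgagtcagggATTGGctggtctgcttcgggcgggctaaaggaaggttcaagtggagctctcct
CENPF: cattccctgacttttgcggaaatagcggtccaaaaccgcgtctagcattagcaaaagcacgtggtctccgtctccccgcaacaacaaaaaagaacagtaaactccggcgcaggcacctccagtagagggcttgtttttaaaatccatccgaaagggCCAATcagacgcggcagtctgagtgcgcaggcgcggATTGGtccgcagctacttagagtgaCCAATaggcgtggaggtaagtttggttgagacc
ASPM: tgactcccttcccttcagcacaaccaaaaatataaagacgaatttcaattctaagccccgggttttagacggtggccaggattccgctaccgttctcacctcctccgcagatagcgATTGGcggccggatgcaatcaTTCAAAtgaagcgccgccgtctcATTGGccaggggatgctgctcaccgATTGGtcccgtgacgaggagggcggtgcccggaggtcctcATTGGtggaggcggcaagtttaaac
KIF20B: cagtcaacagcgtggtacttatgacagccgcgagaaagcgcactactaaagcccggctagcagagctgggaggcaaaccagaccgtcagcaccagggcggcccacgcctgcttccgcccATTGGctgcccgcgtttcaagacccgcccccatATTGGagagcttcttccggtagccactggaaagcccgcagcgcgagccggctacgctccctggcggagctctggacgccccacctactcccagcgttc
PRR11: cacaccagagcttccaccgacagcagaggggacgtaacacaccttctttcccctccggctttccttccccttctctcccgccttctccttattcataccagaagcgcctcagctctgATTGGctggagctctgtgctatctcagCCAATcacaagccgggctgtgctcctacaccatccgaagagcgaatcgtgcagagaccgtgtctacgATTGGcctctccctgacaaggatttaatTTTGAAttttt

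The TOP2A stretch holds CCAAT 4 times and TTTGAA 2 times, and the ASPM stretch holds CCAAT 4 times and TTTGAA 1 time. CENPF and PRR11 have CCAAT 3 times each and KIF20B 2 times. TTTGAA is in the PRR11 stretch 1 time and in those of CENPF and KIF20B 0 times. With the 50 bases after the start included, CENPF holds TTTGAA 1 time and CCAAT 4 times, and KIF20B holds TTTGAA 2 times. Over windows of 300 bases, 250 before to 50 after the start, on both strands, CCAAT was found in 13 of 19 windows of the 15 mitotic genes that matched RefSeq (68.4%), in 36.9% of the 187 windows of 123 matched lower genes, in 32.7% of windows of the higher genes and in 34.6% of all 35116 RefSeq windows. TTTGAA was found in 42.1%, 17.6%, 4.63% and 15.2% of these windows respectively. Other groups described below also held CCAAT, in 4 of 5 windows of the amino acid and stress response genes (80%), 7 of 11 of the early secretory genes (63.6%), 11 of 22 of the cytokine and growth factor genes (50%) and 2 of 5 of the muscle genes (40%). TTTGAA was found in 1, 2, 1 and 0 of these windows. DNA repair genes held CCAAT in 4 of 9 windows (44.4%) and TTTGAA in 3 (33.3%), and genes of cell cycle control and nuclear envelope held CCAAT in 1 of 6 (16.7%) and TTTGAA in 2 (33.3%). Kinases held CCAAT in 1 of 11 windows (9.09%) and transcription and chromatin genes in 5 of 19 (26.3%). RNA processing and translation genes held it in 4 of 12 (33.3%) and metabolic enzymes in 2 of 8 (25%). BEX and TCEAL genes held it in 0 of 3, and channels and gap junctions in 1 of 2. TTTGAA was found in 0, 3, 1, 1, 0 and 1 windows of these groups in turn. The elements can share an end base and were counted apart. Another sequence, TGATGNAA (N for any base), was also searched. It was found in 1 of 5 windows of the amino acid and stress response genes and 1 of 5 of the muscle genes. Its share was 3.21% of windows of the lower genes, 1.14% of those of the higher genes and 3.62% of all windows. A gene can have several windows, and a match is a description of letters, not of a bound site.

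TOP2A (XLOC_009673, chr17:38544773-38574202 on hg19), topoisomerase II alpha, which untangles DNA before chromosomes separate, was the most abundant of the mitotic group. It had 301, 274 and 244 FPKM in GFP replicates 1, 2 and 3 and 189, 191 and 114 FPKM in PANX1 replicates 1, 2 and 3. Its means were 273 ± 28.5 FPKM (SD, n = 3) in GFP cells and 165 ± 44.2 FPKM (SD, n = 3) in PANX1 cells, which gives a log2 ratio of -0.73 (-0.52 without PANX1 replicate 3). The groups did not overlap, PANX1 replicates 1 and 2 lay close together and PANX1 replicate 3 was lowest. SMC4 (chr3:160117430-160152741), a condensin subunit, had 167, 157 and 132 FPKM in the controls, against 117, 101 and 71.7 FPKM in the PANX1 libraries. STAG2 (chrX:123094475-123236505), a cohesin subunit, had 48.2, 47.9 and 42.9 FPKM in the controls, against 36.6, 33.3 and 18.0 FPKM in the PANX1 libraries. SGOL2, a shugoshin that protects cohesin at centromeres, had 36.3, 33.9 and 24.7 FPKM in the controls, against 21.4, 18.0 and 11.4 FPKM in the PANX1 libraries. In all 3 genes GFP replicate 3 was the lowest control and PANX1 replicate 3 the lowest library.

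At the kinetochore, CENPI (XLOC_023516, chrX:100354798-100417978), a subunit of the inner kinetochore network, had the largest reduction of the mitotic group. It had 36.1, 28.0 and 24.8 FPKM in GFP replicates 1, 2 and 3 and 17.9, 18.0 and 10.1 FPKM in PANX1 replicates 1, 2 and 3. Its means were 29.6 ± 5.85 FPKM (SD, n = 3) in GFP cells and 15.3 ± 4.52 FPKM (SD, n = 3) in PANX1 cells, which gives a log2 ratio of -0.95 (-0.72 without PANX1 replicate 3). Every PANX1 value was below every GFP value. CENPE (chr4:104026963-104119566), the kinesin that carries chromosomes toward the spindle equator, had 22.5, 17.7 and 17.5 FPKM in the controls, against 13.7, 13.3 and 7.13 FPKM in the PANX1 libraries. CENPF (chr1:214776532-214837914), a protein of the outer kinetochore, had 81.3, 62.2 and 50.7 FPKM in the controls, against 51.0, 41.5 and 29.6 FPKM in the PANX1 libraries. CENPF was the only mitotic gene whose groups overlapped: its GFP replicate 3 and PANX1 replicate 1 were nearly equal. CASC5 (KNL1), the scaffold of the outer kinetochore, had a log2 ratio of -0.72 (-0.44 without PANX1 replicate 3).

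Spindle and cytokinesis genes were also lowest in PANX1 replicate 3. ASPM (chr1:197053257-197115824), a spindle pole protein, had 30.4, 25.5 and 19.7 FPKM in the controls, against 18.8, 17.6 and 8.92 FPKM in the PANX1 libraries. CDC27 (chr17:45195311-45266665), a subunit of the anaphase-promoting complex, had 82.9, 77.6 and 67.3 FPKM in the controls, against 51.6, 51.5 and 29.4 FPKM in the PANX1 libraries. KIF20B (chr10:91461367-91534700), a kinesin of cytokinesis, had 24.0, 22.1 and 19.6 FPKM in the controls, against 16.2, 14.7 and 8.25 FPKM in the PANX1 libraries. None of the 3 overlapped. KIF14, another kinesin of cytokinesis, CEP97, which limits cilium growth at centrioles, CCSAP, a centriole and spindle protein, and DEPDC1 had log2 ratios between -0.81 and -0.70, and PRR11 had -0.62. Without PANX1 replicate 3, CEP97 had -0.50, CCSAP -0.50 and KIF14 -0.40. GFP replicate 1 was the highest control in 16 of the 17 genes, and PANX1 replicate 3 the lowest PANX1 library in 17 of 17.

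**Figure D2:**
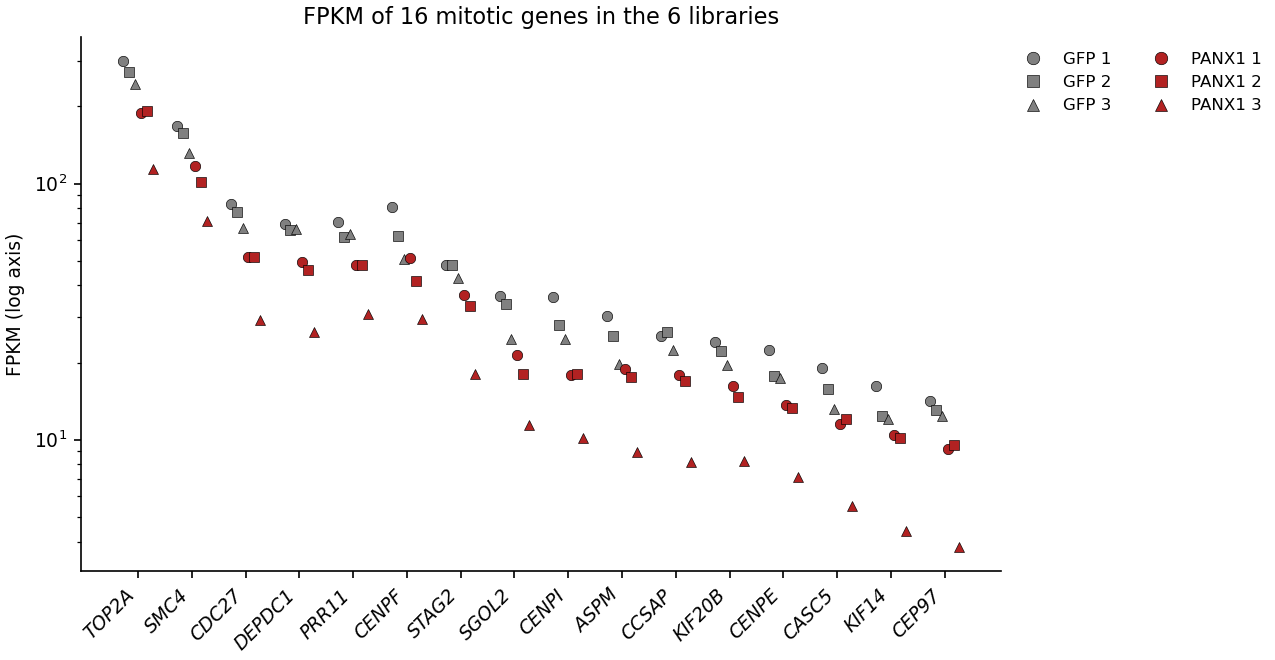
FPKM (log axis) of 16 of the 17 mitotic genes in the 6 libraries, ordered by mean level in GFP cells; gray marks are GFP and red marks PANX1 libraries, with circles, squares and triangles for replicates 1, 2 and 3. The triangle of PANX1 replicate 3 is the lowest mark for each gene, and GFP replicate 1 is the highest control in 15 of the 16.

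Genes of DNA repair were lower by a similar amount. All 8 in this group showed no overlap, with a median log2 ratio of -0.76 and a range from -0.85 to -0.71. The GC-adjusted median was -0.22. BRCA2 (chr13:32889617-32973809), which acts in homologous recombination, had 8.69, 7.39 and 7.90 FPKM in the controls, against 5.43, 5.32 and 2.57 FPKM in the PANX1 libraries. BRIP1 (chr17:59756547-59940920), a helicase that binds BRCA1, had 17.9, 15.9 and 15.8 FPKM in the controls, against 10.7, 12.5 and 6.13 FPKM in the PANX1 libraries. POLQ (chr3:121150273-121264853), the polymerase of end joining guided by microhomology, had 11.9, 9.69 and 8.89 FPKM in the controls, against 7.42, 6.88 and 4.30 FPKM in the PANX1 libraries. Each of the 3 had its highest value in GFP replicate 1 and its lowest in PANX1 replicate 3. RIF1, RMI1, GEN1, SMC5 and ATAD5, which act in end protection, resolution of joined DNA molecules, the SMC5/6 complex and unloading of the PCNA clamp, lay within the same range, and RIF1 moved from -0.73 to -0.45 without PANX1 replicate 3.

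In the group of cell cycle control and nuclear envelope, 7 of 7 genes showed no overlap and the median was -0.70. The median was -0.47 without PANX1 replicate 3, and the GC-adjusted median of the 6 genes with a value was -0.26. CDK6 (chr7:92234235-92465941), a cyclin D dependent kinase of the G1 phase, had 56.9, 52.5 and 48.6 FPKM in the controls, against 40.3, 35.5 and 21.4 FPKM in the PANX1 libraries. RBL1 (chr20:35626178-35724410), the retinoblastoma relative p107 that represses cell cycle genes, had 32.9, 32.8 and 25.9 FPKM in the controls, against 22.7, 19.7 and 13.3 FPKM in the PANX1 libraries. Neither gene overlapped, and GFP replicate 3 was the lowest control of both. DEK, a chromatin protein, had 201, 208 and 195 FPKM in the controls, against 154, 137 and 91.9 FPKM in the PANX1 libraries. LBR, the lamin B receptor, TMEM48 (NDC1), a nuclear pore protein, ANP32E, a histone chaperone, and ATAD2, a bromodomain protein, had log2 ratios of -0.70 (-0.45 without PANX1 replicate 3), -0.69, -0.86 and -0.65.

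Of the list of cell cycle, mitosis, replication and repair genes, 41 entries are in the table. In this list 18 of 41 were lower (43.9%), against 13% of the table, and 23 were higher. Entries were matched by the start of their symbols, so some do not act in the cycle: KIF5B, a transport kinesin, among the lower ones, and among the higher ones CDC42EP1, CDC42EP2 and CDC42BPG, effectors of the GTPase CDC42, CDC37, a chaperone of kinases, CDK5, a kinase best known from neurons, AURKAIP1 and TP53I13. The share of 18 in 41 includes them. All 18 are among the 150 genes, 17 of them without overlap, with a median log2 ratio of -0.73. The 23 higher entries include MCM5 of the replicative helicase, POLD1 of DNA polymerase delta, and CENPM and NCAPH2 of the kinetochore and condensin. The median GC content of the 18 lower entries was 38.0%, and its part in their direction was not tested.

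Skeletal muscle genes were few but had the lowest median log2 ratio of the functional groups in the values as deposited. All 4, MYH8, SMPX, SMYD1 and XIRP2, were below a log2 ratio of -1, with a median of -1.78, and 2 of 4 overlapped. The GC-adjusted median was -0.62, above those of the BEX and TCEAL family (-0.78) and the amino acid and stress response group (-0.68) described below. Median GC contents of these groups were 44.4%, 43.7% and 50.4% in turn. The slope is subtracted alike at every level, also for genes near or below 1 FPKM, such as MYH8, SMPX, XIRP2 and BEX2. There the pseudocount of 1 shrinks measured differences, so the order of these medians is not read as a result. With a pseudocount of 1 the log2 differences were -0.51 for MYH8, -0.93 for SMPX, -1.28 for SMYD1 and -0.37 for XIRP2. Muscle fibers express successive myosin heavy chains as they mature, and MYH8 encodes the perinatal form. MYH8 (XLOC_009497, chr17:10293642-10325267) had 0.388, 0.606 and 0.883 FPKM in GFP replicates 1, 2 and 3 and 0.115, 0.260 and 0.0301 FPKM in PANX1 replicates 1, 2 and 3. All of its values were below 1 FPKM, every PANX1 value was below every GFP value, and both groups spread widely. SMYD1 (chr2:88367299-88412902), a methyltransferase needed for sarcomere assembly, had 3.71, 5.11 and 8.41 FPKM in the controls, against 1.66, 3.80 and 0.472 FPKM in the PANX1 libraries. Its PANX1 replicate 2 was slightly above GFP replicate 1, so the groups overlapped. SMPX (chrX:21724090-21776278), a small muscle protein responsive to stretch, had 0.786, 1.38 and 3.08 FPKM in the controls, against 0.121, 1.09 and 0.0683 FPKM in the PANX1 libraries, also with PANX1 replicate 2 inside the GFP range. XIRP2 (chr2:167744997-168116261), an actin-binding protein of muscle attachment sites, had 0.372, 0.686 and 0.700 FPKM in the controls, against 0.226, 0.267 and 0.163 FPKM in the PANX1 libraries, without overlap.

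The 250 bases before the MYH8 start (chr17:10421951-10422200, minus strand) and the SMYD1 start (chr2:88067575-88067824, plus strand), shown with the same capitals because MYH8 had the lowest log2 ratio and SMYD1 the highest level of the muscle group, hold CCAAT 1 time and 0 times and no TTTGAA. An XIRP2 window also holds CCAAT.
MYH8: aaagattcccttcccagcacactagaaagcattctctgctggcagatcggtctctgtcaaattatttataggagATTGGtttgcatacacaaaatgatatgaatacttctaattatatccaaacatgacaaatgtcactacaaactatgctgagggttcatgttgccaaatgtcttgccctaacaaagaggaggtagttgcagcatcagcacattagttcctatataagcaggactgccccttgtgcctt
SMYD1: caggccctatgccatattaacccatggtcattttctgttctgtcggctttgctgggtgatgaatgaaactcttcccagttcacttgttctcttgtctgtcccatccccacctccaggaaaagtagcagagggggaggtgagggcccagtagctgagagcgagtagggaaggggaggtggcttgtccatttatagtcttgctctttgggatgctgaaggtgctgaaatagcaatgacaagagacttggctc

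The 4 muscle genes were highest in GFP replicate 3 and lowest in PANX1 replicate 3, and their median log2 ratio was -1.39 without PANX1 replicate 3, -2.77 without PANX1 replicate 2 and -1.31 without GFP replicate 3. Some other muscle genes of the table went the other way. Of 9 entries of the muscle list, 5 were lower (55.6%, against 13% of the table), MYH8, SMYD1 and XIRP2 together with LMOD3 and KLHL31, which are among the genes left out by name. The 4 higher entries were DES, TNNT1, the slow skeletal troponin T, TNNI1 and MYH9, with log2 ratios of 0.71, 1.02, 0.66 and 0.71. MYH9 is a non-muscle myosin but is counted in the share, and SMPX is not on the list. TNNT1 had 128, 139 and 153 FPKM in the controls, against 205, 199 and 447 FPKM in the PANX1 libraries.

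Genes of the amino acid and stress response stood high in GFP replicate 3. Cells short of amino acids or with unfolded proteins in the endoplasmic reticulum raise the transcription factor ATF4, whose known targets include genes of serine and one-carbon metabolism. ATF3 (XLOC_001039, chr1:212738676-212794119), a stress-induced transcription factor, had 28.8, 37.6 and 86.7 FPKM in GFP replicates 1, 2 and 3 and 28.0, 27.2 and 24.6 FPKM in PANX1 replicates 1, 2 and 3. PSAT1 (chr9:80912059-80945009), of serine synthesis, had 84.6, 92.5 and 226 FPKM in the controls, against 78.0, 67.7 and 70.3 FPKM in the PANX1 libraries. MTHFD2 (chr2:74425690-74442424), of mitochondrial folate metabolism, had 137, 144 and 281 FPKM in the controls, against 119, 111 and 98.2 FPKM in the PANX1 libraries. In these 3 genes GFP replicate 3 was far above the other controls, and the PANX1 libraries lay below GFP replicates 1 and 2 by less than they lay below GFP replicate 3.

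DDIT4 (chr10:74033677-74035797), an inhibitor of mTORC1 signaling, had 15.9, 18.3 and 118 FPKM in the controls, against 22.1, 30.6 and 24.4 FPKM in the PANX1 libraries. INHBE (chr12:57849096-57851791), an inhibin beta subunit, had 97.6, 102 and 657 FPKM in the controls, against 132, 143 and 221 FPKM in the PANX1 libraries. For both, each PANX1 library was above GFP replicates 1 and 2, so only GFP replicate 3 placed them among the lower genes, and without it their log2 ratios were 0.59 and 0.73. The median of the 5 genes was -0.90 with all libraries and -0.30 without GFP replicate 3, and the GC-adjusted median was -0.68. SLC7A11, the cystine transporter, which was left out by its name, had 0.422, 0.321 and 2.79 FPKM in the controls, against 0.474, 0.376 and 0.375 FPKM in the PANX1 libraries, and was also highest in GFP replicate 3. Across all 150 genes, GFP replicate 3 exceeded 2 times the mean of the other GFP libraries in 11.

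**Figure D3:**
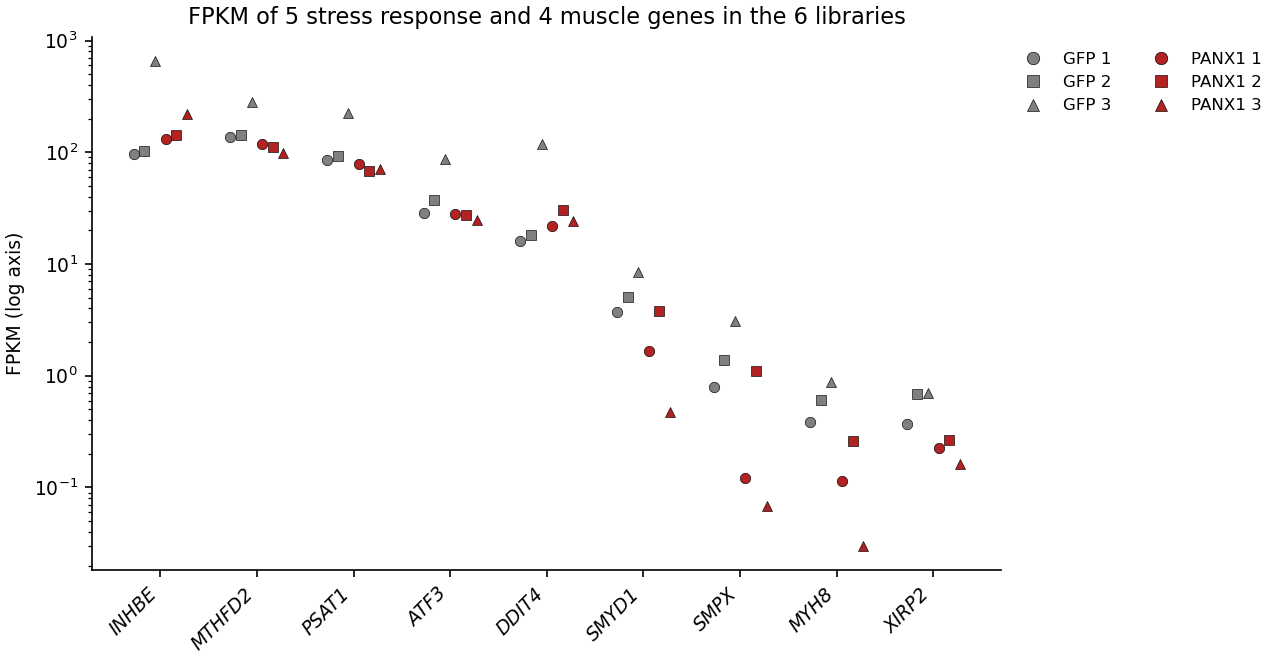
FPKM (log axis) of 5 genes of the amino acid and stress response and 4 muscle genes in the 6 libraries, with gray for GFP, red for PANX1 and circles, squares and triangles for replicates 1, 2 and 3. GFP replicate 3 is the highest mark for all 9 genes, and the DDIT4 and INHBE marks of the PANX1 libraries lie above GFP replicates 1 and 2.

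JUND, ATF3 and CEBPD are transcription factors of rapid responses. JUND (XLOC_011533, chr19:18390563-18392432), a subunit of the AP-1 factor, had 113, 125 and 116 FPKM in GFP replicates 1, 2 and 3 and 78.0, 79.2 and 51.8 FPKM in PANX1 replicates 1, 2 and 3. Its means were 118 ± 6.20 FPKM (SD, n = 3) in GFP cells and 69.7 ± 15.5 FPKM (SD, n = 3) in PANX1 cells, which gives a log2 ratio of -0.76 (-0.59 without PANX1 replicate 3), and its 3 GFP values were close together. CEBPD (chr8:48649476-48650726), a factor of inflammation and differentiation, had 7.10, 11.1 and 13.5 FPKM in the controls, against 6.72, 4.90 and 1.95 FPKM in the PANX1 libraries, a log2 ratio of -1.23. Neither overlapped. Of the 4 immediate early genes in the table, ATF3 and JUND were lower, EGR1 was lower and left out by name, and NR4A1 was higher, so 75% were lower, against 13% of the table. The other transcription and chromatin genes included ELK4, a partner of serum response factor, SUZ12 of the Polycomb complex PRC2, MED13 of Mediator, BTAF1, GTF2A1, TBL1XR1, NRIP1 and PROX1, and 14 of 14 in the group showed no overlap with a median of -0.74 (-0.50 without PANX1 replicate 3). Of the transcription factor list 4 of 29 entries in the table were lower (13.8%, against 13% of the table), and of the list of chromatin regulators and histones 1 of 11 (9.09%), SUZ12. The GC-adjusted median was -0.31.

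The BEX and TCEAL genes form a family on the X chromosome, members of which are linked to cell death and neurotrophin signaling. BEX4 (chrX:102470020-102472128) had 14.2, 16.0 and 14.9 FPKM in GFP replicates 1, 2 and 3 and 7.82, 7.74 and 6.73 FPKM in PANX1 replicates 1, 2 and 3, a log2 ratio of -1.02. Its 3 PANX1 values were tightly grouped, and without PANX1 replicate 3 the log2 ratio was -0.95. TCEAL7 (chrX:102585114-102587251) had 51.4, 70.5 and 91.0 FPKM in the controls, against 33.7, 43.8 and 23.8 FPKM in the PANX1 libraries, and BEX2, below 1 FPKM in every library, had 0.280, 0.247 and 0.792 FPKM in the controls, against 0.0989, 0.199 and 0.0705 FPKM in the PANX1 libraries. The log2 ratio of BEX2 was -1.84, and -1.10 without GFP replicate 3, its highest control. None of the 3 overlapped, and their GC-adjusted median was -0.78. The paternally expressed imprinted genes PEG10 (-0.63, and -0.40 without PANX1 replicate 3) and the joint entry PEG3,ZIM2 (-1.02), whose genes share a locus and cannot be told apart, also showed no overlap.

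The lower genes held 10 of cytokine, growth factor and morphogen signaling, although most entries of such lists in the table were higher. Of the list of receptor kinases, growth factors and their adaptors 3 of 15 were lower (20%, against 13% of the table), and the higher ones include FGFR4, ERBB2, IL1R1, IL7R and FGF1. Of the list of TGF-beta, BMP, Wnt, Notch and Hedgehog pathways 2 of 7 were lower (28.6%), TGFBR1 and INHBE. LIFR (chr5:38475065-38595507), the receptor of leukemia inhibitory factor, had 9.60, 9.86 and 9.49 FPKM in the controls, against 6.67, 7.31 and 2.65 FPKM in the PANX1 libraries. IL6ST (chr5:55230925-55290821), the gp130 chain with which LIFR signals, had 31.0, 29.2 and 27.9 FPKM in the controls, against 21.1, 22.6 and 9.04 FPKM in the PANX1 libraries. SOCS4, of the family of suppressors of cytokine signaling, had 18.1, 17.3 and 14.1 FPKM in the controls, against 11.9, 10.1 and 5.75 FPKM in the PANX1 libraries. All 3 had PANX1 replicates 1 and 2 below the GFP libraries and PANX1 replicate 3 far lower. TGFBR1 (chr9:101867412-101916473), the type I receptor of TGF-beta, had 95.0, 88.4 and 88.7 FPKM in the controls, against 65.2, 67.5 and 43.2 FPKM in the PANX1 libraries. LGR4, an R-spondin receptor of Wnt signaling, TNFRSF19, a receptor of the tumor necrosis factor family, GNA13, a G protein alpha subunit, and MIB1, a ubiquitin ligase for Notch ligands, had log2 ratios of -0.78, -0.85, -0.80 and -0.77, and without PANX1 replicate 3 LGR4 had -0.46 and MIB1 -0.41. GAS1, a cell surface protein that binds Hedgehog ligands, had 91.6, 150.1 and 123 FPKM in the controls, against 87.5, 71.7 and 55.0 FPKM in the PANX1 libraries. The 10 genes of this group showed no overlap and had a median of -0.77 (-0.46 without PANX1 replicate 3). The GC-adjusted median was -0.31.

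Among kinases, ROCK2 (chr2:11321778-11484711), a kinase that acts on the actin cytoskeleton, had 24.6, 21.5 and 19.1 FPKM in the controls, against 15.4, 14.9 and 7.41 FPKM in the PANX1 libraries. TAOK1, of the p38 and Hippo pathways, HIPK3, a homeodomain-interacting kinase, and RPS6KA6, of the ribosomal S6 kinase family, had log2 ratios of -0.78, -0.76 and -0.84. MOB1A, an activator of the LATS kinases of the Hippo pathway and not in the kinase group, had -0.69. Without PANX1 replicate 3 the ratios of TAOK1, HIPK3, RPS6KA6 and MOB1A were -0.44, -0.39, -0.56 and -0.43. HIPK3 had -1.16 without PANX1 replicate 2. Of the list of protein kinases and phosphatases, 4 of 35 entries in the table were lower (11.4%, against 13% of the table). NRK was the only one of 6 kinases in the group whose libraries overlapped. The median of the 6 was -0.78, and -0.48 without PANX1 replicate 3. The GC-adjusted median was -0.45.

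Genes of the early secretory pathway, endoplasmic reticulum and endosome gave 11 of 11 without overlap and a median of -0.76 (-0.44 without PANX1 replicate 3). They include TMED5 of the cargo receptors between endoplasmic reticulum and Golgi, the thioredoxin-like TMX3 and TMX4, SEL1L, which supports degradation of misfolded proteins, and EEA1, a tether of early endosomes. KIF5B (chr10:32297938-32345371), the heavy chain of conventional kinesin, had 169, 152 and 156 FPKM in the controls, against 117, 128 and 63.4 FPKM in the PANX1 libraries. TMED5 had a log2 ratio of -0.79. The joint entry TICAM2,TMED7,TMED7-TICAM2 has overlapping genes, between which fragments could not be assigned. On the vesicle traffic list, 5 of 39 entries in the table were lower (12.8%). The GC-adjusted median of the 10 genes with a value was -0.15.

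RNA processing and translation genes had a median of -0.70 with 6 of 6 not overlapping. The GC-adjusted median was -0.21. DICER1 (chr14:95552565-95623759), which cuts microRNA precursors, had 19.7, 16.8 and 15.3 FPKM in the controls, against 11.7, 12.2 and 4.69 FPKM in the PANX1 libraries. SRSF10, a splicing factor, and CPSF2, of the polyadenylation machinery, had log2 ratios of -0.70 and -0.68. EIF1AX, a translation initiation factor encoded on the X chromosome, had -0.67. On the RNA list, 7 of 52 entries in the table were lower (13.5%), of which RPS6KA6 and PANK3 matched by the start of their symbols and not by function.

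MAT2A, which makes the methyl donor S-adenosylmethionine, had the highest GFP mean of the lower genes. MAT2A (XLOC_012275, chr2:85766101-85788657) had 326, 280.1 and 391 FPKM in GFP replicates 1, 2 and 3 and 179.6, 194 and 175 FPKM in PANX1 replicates 1, 2 and 3. Its means were 333 ± 55.9 FPKM (SD, n = 3) in GFP cells and 183 ± 9.86 FPKM (SD, n = 3) in PANX1 cells, which gives a log2 ratio of -0.86, and it changed little without PANX1 replicate 3 (-0.83). The 3 PANX1 values were close together while the GFP values spread. CLIC4 (chr1:25071760-25170815), an intracellular chloride channel protein, had 319, 274 and 316 FPKM in the controls, against 207, 233 and 113 FPKM in the PANX1 libraries. The connexin GJC1 (connexin 45), a gap junction protein, and the inward rectifier channel KCNJ2 had log2 ratios of -0.66 and -0.86, without overlap. GJC1 was the only lower entry among 4 of the list of pannexins, connexins and purinergic signaling (25%, against 13% of the table).

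Some genes had large ratios at low levels. C9orf170 had 3.19, 3.33 and 1.92 FPKM in the controls, against 1.24, 0.812 and 0.894 FPKM in the PANX1 libraries, without overlap. NDST4, of heparan sulfate synthesis and chosen for mention after its value was seen, stayed at or below 0.280 FPKM in every library. GPR19, SIPA1L2 and DIO2, an orphan receptor, a regulator of small GTPases and the deiodinase that activates thyroid hormone, had log2 ratios of -1.43, -1.36 and -1.05. GPM6B (chrX:13789062-13956831), a membrane glycoprotein of the proteolipid family, was lower at a higher level, with 21.7, 24.2 and 25.1 FPKM in the controls, against 13.2, 14.6 and 6.86 FPKM in the PANX1 libraries. FAM153A and FAM153C are near-identical copies and ANKRD36BP1 and CCDC144B are pseudogenes, so the division of fragments between them and their relatives is uncertain. The Y-linked genes USP9Y and DDX3Y are also among the 150. Functional groups were given to 103 genes, and the other 47 had log2 ratios from -2.75 to -0.63.

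The 11 genes with overlapping groups were SMPX, SMYD1, DNAJA4, EDN3, MASP2, IGLL1, PDE4D, DDIT4, NRK, INHBE and CENPF. In 8 of them the GFP libraries had a coefficient of variation above 50%. PDE4D, a cyclic AMP phosphodiesterase, had 5.75, 7.51 and 15.1 FPKM in the controls, against 5.54, 5.92 and 2.54 FPKM in the PANX1 libraries, where GFP replicate 1 lay below PANX1 replicate 2. The members nearest to the limit of the rule were TUG1, PEG10, TGFBR1, KIF5B and PRR11, with log2 ratios from -0.63 to -0.62. The nearest genes on the other side, UBB, RPL19, TPI1, TNNI1 and DCTN1, had log2 ratios from 0.63 to 0.66. No gene of the table lay between, since it holds only genes already called changed.

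The lower genes had AT-rich, long transcripts. Transcript GC content could be had for 137 of the 150 genes (91.3%), with a median of 39.0% and quartiles of 36.8% and 41.8%, against 61.6% for the 1004 higher genes with a value and 49.1% for annotated protein-coding genes. Only 12 of the 137 were at or above 49.1%, and of the 159 genes of the table below it, 135 were lower in PANX1 cells (84.9%). The median transcript length was 6226 bases against 2408 bases for the higher genes, and the median locus spanned 52.4 kb against 12.8 kb. Their promoter windows had a median GC content of 63.0%, against 67.2% for the higher genes and 58.7% for all windows. The X chromosome held 15 of the lower genes (10%) against 2.89% of the higher genes, and chromosome 19 held 2 (1.33%) against 20.5%.

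**Figure D4:**
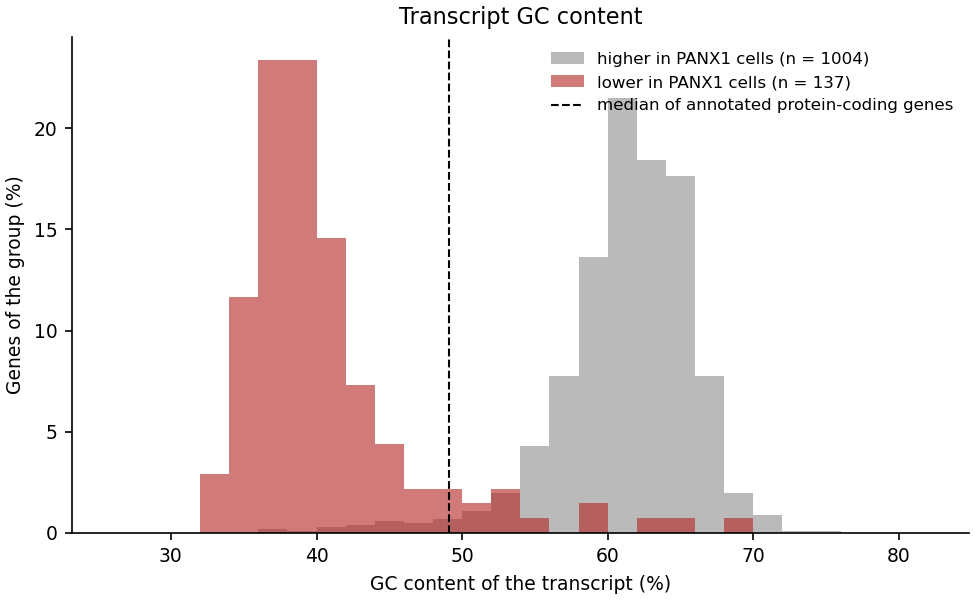
Transcript GC content (%, horizontal axis) of 137 lower and 1004 higher genes as a share of each group (%, vertical axis), with a dashed line at the median of annotated protein-coding genes. The lower genes center on 39.0% and the higher genes on 61.6%, on opposite sides of the line at 49.1%.

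Base composition also moved with the libraries. Over the table, the slope of log2(FPKM + 1), centered per gene, on GC content was -0.036, -0.028 and -0.026 log2 units per percent in GFP replicates 1, 2 and 3, and 0.0094, 0.0022 and 0.079 in PANX1 replicates 1, 2 and 3. PANX1 replicate 3, the library in which 144 of the 150 genes had their lowest PANX1 value, had the steepest slope. After each library's slope was subtracted, the median relative to the table was -0.31, against -1.64 before, with 133 of 137 genes below the table median, which the rule nearly fixes. How many genes stayed below 0 depended on the GC content taken as reference: 104 of 137 with the annotated median of 49.1%, and 8 of 137 with the table median of 61.0%. Because the slopes differ between the groups, a group difference and a GC-related difference cannot be told apart by this subtraction.

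GC-adjusted, the lowest values belonged to CEBPD (-2.33), JUND (-2.22), IGLL1 (-1.71), GAS1 (-1.57) and SMYD1 (-1.38). IGLL1 had 1.47, 1.96 and 5.48 FPKM in the controls, against 1.17, 1.81 and 0.804 FPKM in the PANX1 libraries, and its deposited log2 ratio of -1.23 was -0.44 without GFP replicate 3. SMYD1 had a deposited log2 ratio of -1.54, and -2.43 without PANX1 replicate 2. By construction the subtraction moves GC-rich genes down and AT-rich genes up relative to the table. The 12 genes at or above 49.1% GC are JUND, CEBPD, IGLL1, GAS1, DDIT4, BEX2, INHBE, KIAA1671, EDN3, ATF3, SIPA1L2 and MASP2. JUND had the highest GC content of the 12, 69.9%. In 7 of the 12 the groups had not overlapped in the deposited values, beside 139 of all 150 lower genes. Both counts come from the contrast that chose the genes, and nothing is read from them.

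**Figure D5:**
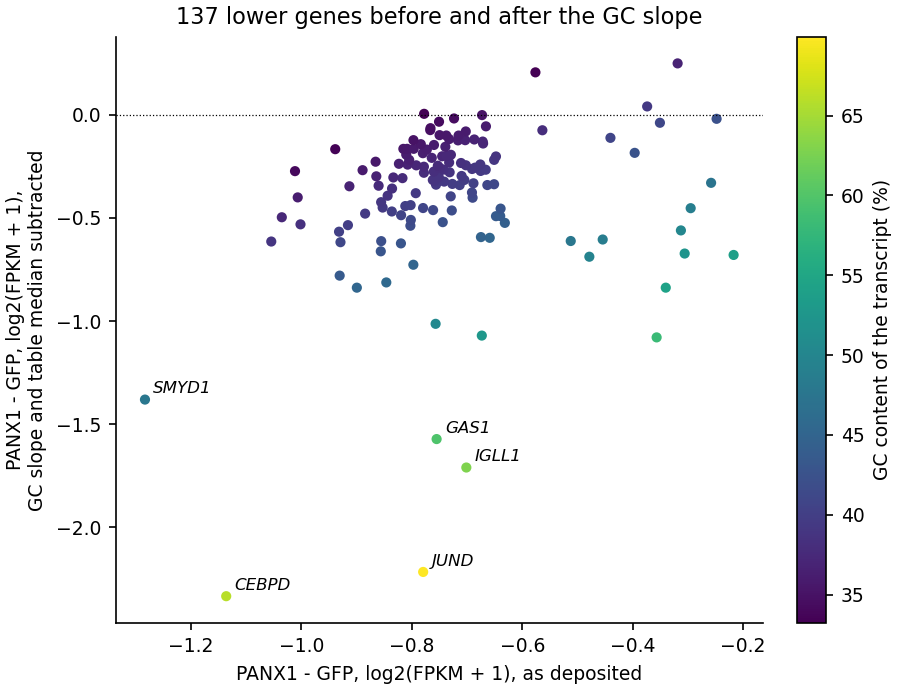
Difference of PANX1 and GFP means of log2(FPKM + 1) for 137 lower genes, as deposited (horizontal axis) and after subtracting each library's slope on GC content and the median of the table (vertical axis), with color for transcript GC content (%). Most points lie a little below 0 on the vertical axis, where the median is -0.31, and the labeled GC-rich genes CEBPD, JUND, IGLL1 and GAS1, with SMYD1, lie lowest.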

How the data were processed

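RNA-seq of 3 GFP and 3 PANX1 libraries was used. The authors used TopHat 2.0.13 with Bowtie 2.2.3 for alignment (build hg19) and deposited FPKM values from Cufflinks 2.2.1, for genes they had called changed. The library normalization within Cufflinks is not given in the sources used here. The study states read totals for its libraries, which were not used here, and counting intervals cannot be had from FPKM alone. Per-library sums of FPKM over the table were 34949.7, 38502.4 and 44473.2 in GFP replicates 1, 2 and 3. They were 53904.4, 56719.6 and 105929 in PANX1 replicates 1, 2 and 3. Replicate numbers are those of the sample titles, and starts of loci were made 1-based.

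The genes, lists and named genes were chosen with earlier results of these data known. Named genes were the 25 smallest ratios at a GFP mean of at least 1 FPKM, the 10 highest GFP means, the 5 nearest the limit of the rule, members of lists with 3 or more lower genes, and genes the study shows. Others given with values (such as GAS1, LBR and the high-GC genes) were picked after their values were seen. Log2 ratios are of group means without a pseudocount. The longest protein-coding transcript in GENCODE v44lift37 gave GC content and length, and the GC slope was fitted per library on log2(FPKM + 1), with differences given relative to the table median. Promoter windows came from RefSeq. Values of 1 gene of the mitotic group are not reported here. Scripts were tested on simulated data. Alternatives were leaving out each library, medians, a minimum of 1 FPKM, pseudocounts of 1 and 0.1, median-of-ratios scaling, the GC slope, and blocks by replicate number. Computations ran in Python 3.11.15 (numpy 2.4.6, pandas 2.3.3, scipy 1.17.1), and matplotlib 3.10.9 drew the figures.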

Additional observations from a re-analysis of the deposited data

How the results depend on the processing

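The 150 genes kept their direction under leaving out GFP replicates 1 or 2 or any PANX1 library. Since these libraries also chose the genes, the kept direction is not read as a result. Leaving out GFP replicate 3 turned DDIT4 (0.59) and INHBE (0.73) higher, leaving 148. With 1 library left out in turn, DDIT4 ran from -1.41 to 0.59 and INHBE from -1.20 to 0.73. Genes with a log2 ratio below -1, 32 with all libraries, numbered 14 to 54 when 1 library was left out, with 54, 50 and 14 without PANX1 replicates 1, 2 and 3. They numbered 16 at a minimum mean of 1 FPKM, 8 with a pseudocount of 1, 150 under median-of-ratios scaling and 5 with the GC slope subtracted. Leaving out GFP replicate 3 and PANX1 replicate 3 together, chosen after seeing the data, gave 8, and DDIT4 and INHBE were then higher (0.63 and 0.46). Median-of-ratios scaling moved the median of the table from 1.23 to 0.041 and that of the lower genes to -1.63, and made 533 genes of the table lower. It centers a table made only of genes called changed, so values and counts under it are not read as a result. The GC slope, with the annotated median of 49.1% GC as its reference, gave 305 lower genes in the table, a median of -0.13 for the 137 lower genes with a GC value (104 of them lower) and 33 without overlap. With the table median of 61.0% GC as the reference, chosen after seeing the data, it gave 11 lower genes in the table, a median of 0.59 for the 137 genes (8 of them lower), 3 without overlap and 2 below -1. The reference moves all genes alike, so it fixes these signs and counts, and values relative to the table median do not depend on it. The cause of the other moves was not tested, except that scaling shifts all genes together. Of 765 alternative values for the named genes, 653 moved by less than the spread, 108 moved further and 4 reversed. These 4 do not count every sign under the GC slope. With the 49.1% reference, named genes such as ZDHHC21 (0.38), XIRP2 (0.22), EIF1AX (0.17), KIF20B (0.14) and USP9Y (0.10) lay above 0. Sample titles number the libraries 1 to 3 in both groups, descriptions number GFP 1 to 3 and PANX1 2 to 4, and the study's methods mention matched replicates without saying which numbering. Deviations from the group means correlated at 0.42, -0.36 and 0.14 for libraries with the same title number, and at -0.0061 and 0.053 for the 2 pairs that share a description number, which does not settle whether the libraries were paired. A replicate block by title numbers gave 150 lower genes, 32 below -1 and a median of -0.85. A replicate block by description numbers, chosen after seeing the data and without GFP replicate 1 and PANX1 replicate 3, kept all 150 genes lower, with 18 below -1 and a median of -0.50, and the rule applied anew to the table gave 151 genes. FPKM keep no counts, so the counts behind low values were not computed.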
